A study of Mus musculus with 9 samples.

Results

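Described here are 35 mouse genes of glycolysis, of its supply and outlet, of oxygen sensing and of the transcriptional response to low oxygen. They were chosen by name from these pathways, and every probe set that the platform annotation assigns to a single gene of the list was taken. That gave 63 of the 22690 probe sets on the array, covering 31 genes. Of these, 60 probe sets of 30 genes were tested, and the 3 probe sets of Gapdh are control features of the array that were read separately. Bnip3l, Eno1, Gpi1 and Hif1an had no probe set with a single gene and were not analysed here.

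Total RNA was measured in RAW 264.7 cells, a mouse macrophage line, on 9 Affymetrix arrays, 1 per sample. Of these samples, 3 had been treated with lipopolysaccharide (LPS), a component of the bacterial outer membrane, for 18 h at 100 ng/ml, 3 were labelled as overexpressing CstF-64 constitutively, and 3 were untreated. CstF-64 is the protein of Cstf2, a factor of mRNA 3′ end cleavage. Neither the construct nor how the overexpressing cells were obtained is given in the labels, and no vector control is among the 9 samples. Whether replicates are separate cultures is not stated either, so p-values reflect the spread of these samples alone and that spread may be technical. In bulk RNA, fewer cells of a kind and less RNA per cell cannot be told apart.

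Glycolysis splits glucose into pyruvate. Glucose enters through transporters, hexokinases trap it, phosphofructokinase commits it, and pyruvate is then reduced to lactate and exported or passed to mitochondria. Hypoxia-inducible factor (HIF), a dimer of HIF-1α (Hif1a) and ARNT, switches on many of these genes when oxygen is low. Prolyl hydroxylases (Egln1, Egln3) mark HIF-1α for destruction through the VHL protein when oxygen is present. In macrophages, LPS is known to raise glycolysis and to stabilise HIF-1α.

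Values are the deposited intensities on a linear scale, which had been scaled to a common level. Log2 changes are differences of log2(intensity + 13), and "rose", "fell" and "called" refer to a limma adjusted p under 0.05 over all 22626 probe sets tested. Where a gene had several probe sets, the brightest stands for it unless another is named. An intensity of 31.2, the highest of the bacterial control features, served as the background limit, and all 30 tested genes exceeded it in at least 1 group mean. All 10 macrophage markers lay above that limit on every array, while 4 of 6 measured lymphocyte markers, 3 of 6 fibroblast markers and 1 of 3 measured erythroid markers lay at or below it on every array. The summed fibroblast markers were 161.6 to 190.9 in LPS arrays, 119.5 to 138.2 in arrays labelled CstF-64 and 118.2 to 139.9 in untreated arrays. Of the 6 fibroblast markers only Dcn was called after LPS (limma adjusted p = 0.00108). It read 34.4, 46.4 and 61.7 in LPS arrays, against 4.9, 3.5 and 13.4 in untreated arrays. The brighter Cstf2 probe set read 195.9 to 248.1 in LPS arrays, 317.9 to 394.5 in arrays labelled CstF-64 and 363.1 to 397.8 in untreated arrays, so it was not higher under the CstF-64 label. Probe sets outside the construct would not register it. LPS array 1 and CstF-64 array 1 stood apart from their groups, with mean correlations of 0.966 and 0.975 to the other arrays of the group, where the remaining arrays had 0.977 to 0.985.

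After LPS, the glucose transporter Slc2a1, the phosphofructokinase activator Pfkfb3 and Hif1a rose, and Pdk1 and the monocarboxylate transporter Slc16a1 fell. Thus 3 of the 30 genes were higher, against 6.63% of all named genes, and 2 were lower, against 10.4%. The 25 others were not called. With median centring of the arrays the counts were 6 higher and 2 lower, with a median over all named genes of 0.13. The median log2 change was 0.10 over the 30 genes and -0.03 over all 12393 named genes. The values of LPS and untreated arrays did not overlap for 10 of the 30 genes, against 33.9% of all named genes, and 9 had an unadjusted p under 0.05, against 29.0%.

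**Figure D1:**
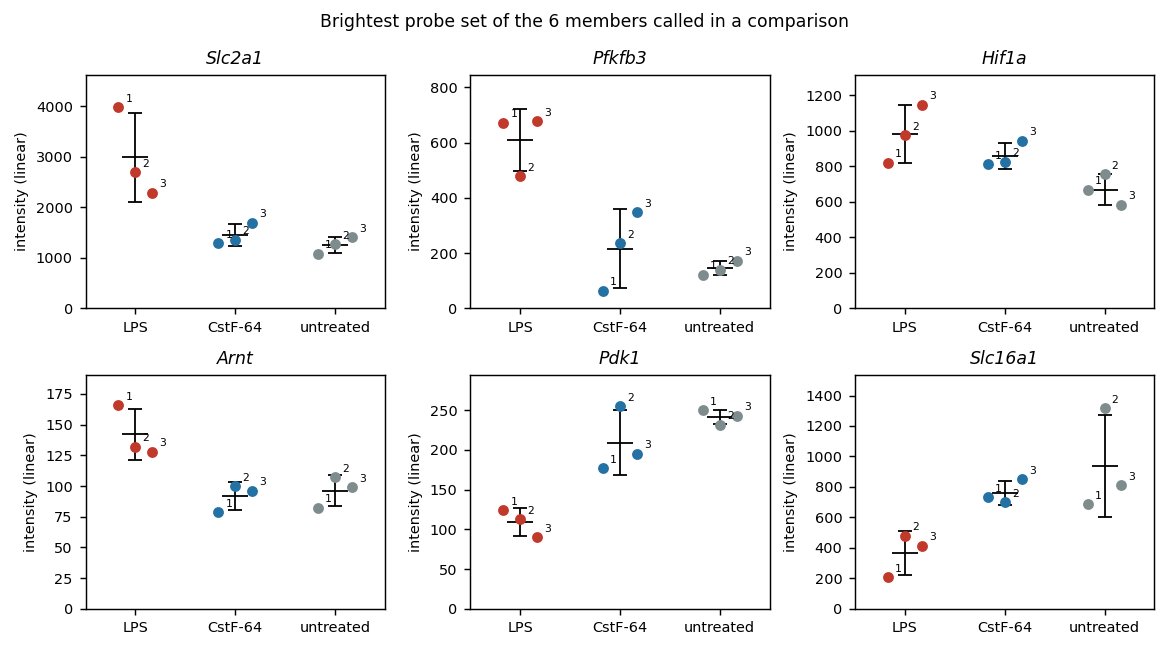
Intensity (linear scale) of the 6 genes called in at least 1 comparison, by array, with LPS, CstF-64 and untreated groups from left to right. Points are arrays with their replicate numbers, and bars are the mean and SD of 3 arrays. All 3 LPS arrays lie above all other arrays for Slc2a1, Pfkfb3 and Arnt and below all others for Pdk1 and Slc16a1.

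Slc2a1 encodes GLUT1, the main glucose carrier of activated macrophages. It read 3989.7, 2692.6 and 2295.3 in LPS arrays 1, 2 and 3, against 1079.9, 1275.9 and 1414.2 in untreated arrays. Every LPS array lay above every untreated array, the first the furthest. The log2 change was 1.21 (SE 0.21, limma adjusted p = 0.00338), and the means were 2993 ± 886 after LPS and 1257 ± 168 in untreated cells (SD, n = 3 each). Its 2 other probe sets, 1426600_at and 1426599_a_at, rose by 1.55 and 1.53 (limma adjusted p = 0.00678 and 0.00294), so all 3 probe sets moved alike. Slc2a1 was called under all 19 alternative settings run, and its log2 change was 0.99 without LPS array 1.

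Hk1 and Hk2 encode hexokinases, which phosphorylate the glucose that has entered. Hk1 read 2025.8, 1104.7 and 1247.8 in LPS arrays, against 814.9, 901.9 and 1066.5 in untreated arrays. These groups did not overlap, with LPS array 1 far above the rest, but the log2 change of 0.60 was not called (SE 0.23, limma adjusted p = 0.109). Without LPS array 1 it was 0.34. Hk2, the inducible isoform, read 792.8, 492.4 and 529.3 in LPS arrays, against 610.5, 596.7 and 693.6 in untreated arrays. Here LPS arrays 2 and 3 lay below and LPS array 1 above the untreated range, and the log2 change was -0.09 with a 95% interval from -0.48 to 0.29 (limma adjusted p = 0.791). Without LPS array 1 it was -0.30 (limma adjusted p = 0.120).

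Pfkfb3 makes fructose 2,6-bisphosphate, the allosteric activator of phosphofructokinase. It read 671.5, 479.2 and 678.1 in LPS arrays, against 122.6, 139.5 and 172.9 in untreated arrays, with no overlap and with all LPS arrays well above the highest untreated one. The log2 change of 1.97 was the largest rise among the 30 genes (SE 0.46, limma adjusted p = 0.0163). Its dimmer probe set, 1456676_a_at, read 137.9, 78.3 and 77.0 in LPS arrays, against 30.5, 47.8 and 70.7 in untreated arrays, and was not called (log2 0.83, limma adjusted p = 0.113). The call of Pfkfb3 was lost without LPS array 1, LPS array 3, untreated array 1 or untreated array 2, with limma adjusted p up to 0.0573. Of the 3 phosphofructokinase subunits none was called. The log2 changes of Pfkl, Pfkm and Pfkp were -0.04, -0.61 and 0.15, with limma adjusted p from 0.0599 to 0.928. Pfkm, the muscle-type subunit, read 109.6 to 137.3 in LPS arrays, against 178.3 to 205.8 in untreated arrays, without overlap.

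None of the 6 tested genes of lower glycolysis was called, against 6.63% of all named genes higher and 10.4% lower. At an unadjusted limma p under 0.05 there were 0, against 29.0% of all. Aldoa, Aldoc, Tpi1, Pgk1, Pgam1 and Pkm, which encode the enzymes from aldolase to pyruvate kinase, had log2 changes between 0.08 and 0.28. All of these but that of Pgk1 were below 0 under quantile normalization, so the sign depended on the scaling. Pgk1, the phosphoglycerate kinase, read 5381.6, 4974.7 and 4910.0 in LPS arrays, against 3684.3, 4050.8 and 4885.1 in untreated arrays. All LPS arrays lay above the untreated ones, although untreated array 3 came close to the lowest LPS array. Gapdh, the glyceraldehyde 3-phosphate dehydrogenase, is often used as an invariant standard. Its 3′ probe set read 5662.4, 4595.1 and 4507.8 in LPS arrays, 4709.7, 4648.3 and 4140.3 in arrays labelled CstF-64, and 3932.4, 3936.3 and 4828.1 in untreated arrays, with overlapping groups. With the control features kept in the fit, the log2 changes of the 3 Gapdh probe sets after LPS were 0.22, 0.21 and 0.32 (limma adjusted p = 0.372, 0.444 and 0.198).

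Single probe sets of 3 of these genes passed the threshold although the brightest did not. 1439435_x_at of Pgk1 read 1080.1, 977.0 and 1245.1 in LPS arrays, against 707.5, 725.6 and 819.5 in untreated arrays (log2 0.54, limma adjusted p = 0.0365). 1435659_a_at of Tpi1, the triosephosphate isomerase, read 2440.8, 2164.4 and 2366.3 in LPS arrays, against 1741.9, 1538.8 and 1844.9 in untreated arrays (log2 0.44, limma adjusted p = 0.0371). In both cases the groups did not overlap and the LPS arrays were the higher ones. 1424714_at of Aldoc, a brain-type aldolase, went the other way and read 19.2, 44.8 and 38.7 in LPS arrays, against 62.4, 92.3 and 111.7 in untreated arrays (log2 -1.12, limma adjusted p = 0.0344). LPS array 1 lay below the background limit there, while the bright Aldoc probe set 1451461_a_at had a log2 change of 0.11 (limma adjusted p = 0.792). Over all probe sets of the list, 7 of 60 rose, against 5.93% of all probe sets, and 4 fell, against 10.7%. The test of unequal probe sets within a gene (limma diffSplice) called none of 18 genes after LPS, against 5.85% of all 4956 genes. Its smallest adjusted p was 0.0836, for Aldoc, which was called without CstF-64 array 1 and with the replicate number as a block.

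At the fate of pyruvate, 2 of 6 genes fell, against 10.4% of all named genes, and none rose, against 6.63%. Pdk1 encodes pyruvate dehydrogenase kinase 1, which holds pyruvate back from mitochondria, and is a known HIF target. It read 124.1, 112.7 and 90.1 in LPS arrays, against 250.0, 231.5 and 242.8 in untreated arrays. Every LPS array lay far below every untreated array, and the log2 change was -1.07 (SE 0.16, limma adjusted p = 0.00172). Its second probe set, 1423747_a_at, fell by 1.04 (limma adjusted p = 0.0242), and the call of Pdk1 held under all 19 alternatives. Slc16a1 encodes MCT1, a proton-linked carrier of lactate and pyruvate. It read 207.1, 479.0 and 413.6 in LPS arrays, against 685.5, 1315.8 and 811.0 in untreated arrays, with LPS array 1 the lowest and untreated array 2 the highest. The groups did not overlap and the log2 change was -1.35 (SE 0.31, limma adjusted p = 0.0147). Without untreated array 2 the limma adjusted p was 0.0563, and without LPS array 1 it was 0.0279.

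The other genes of this step were not called. Ldha, the lactate dehydrogenase subunit of glycolytic cells, read 5421.9, 5084.0 and 5051.4 in LPS arrays, against 3799.8, 3900.5 and 4979.2 in untreated arrays. The groups did not overlap, but untreated array 3 was close to the LPS arrays and the log2 change was 0.30 (SE 0.13, limma adjusted p = 0.164). Slc16a3, the lactate exporter MCT4, read 852.6 to 1453.3 in LPS arrays, against 575.1 to 1225.6 in untreated arrays (log2 0.35, limma adjusted p = 0.432). Ldhb and Pdk3, a second lactate dehydrogenase subunit and a second pyruvate dehydrogenase kinase, had log2 changes of 0.01 and -0.26.

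Among the 5 oxygen sensing genes, Hif1a rose. It read 819.8, 975.3 and 1146.2 in LPS arrays, against 668.4, 754.0 and 583.7 in untreated arrays, so that all LPS arrays were higher. The log2 change was 0.54 (SE 0.15, limma adjusted p = 0.0347). The 3 other Hif1a probe sets had log2 changes of 0.21, 0.35 and 0.26 and were not called, and the call was lost in 8 of 19 alternatives, quantile normalization and the mean over its probe sets among them (limma adjusted p up to 0.119). Single arrays decided it as well, since it was lost without LPS array 2, LPS array 3, CstF-64 array 2, untreated array 1 or untreated array 3. Arnt, the partner of HIF-1α, read 165.8, 132.1 and 128.1 in LPS arrays, against 82.4, 107.1 and 99.0 in untreated arrays. Those groups did not overlap, and the log2 change of 0.50 had a limma adjusted p of 0.0590, just past the threshold. Vhl, Egln1 and Egln3 had log2 changes of -0.21, -0.23 and -0.22 (limma adjusted p from 0.706 to 0.870).

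None of the 5 hypoxia-induced genes was called after LPS, against 6.63% of all named genes higher and 10.4% lower. None had an unadjusted p under 0.05 by limma, against 29.0% of all. Vegfa, an endothelial growth factor, read 467.8, 165.2 and 200.5 in LPS arrays, against 178.6, 177.0 and 197.6 in untreated arrays. LPS array 1 alone stood out, LPS array 2 lay below every untreated array, and the log2 change was 0.42 (SE 0.40, limma adjusted p = 0.562). Without LPS array 1 it was -0.02. The second Vegfa probe set, 1451959_a_at, gave 0.79 over all arrays and was not called (limma adjusted p = 0.280). For Adm, Ndrg1, Bnip3 and Ddit4, described further on, the log2 changes ran from 0.04 to 0.88.

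**Figure D2:**
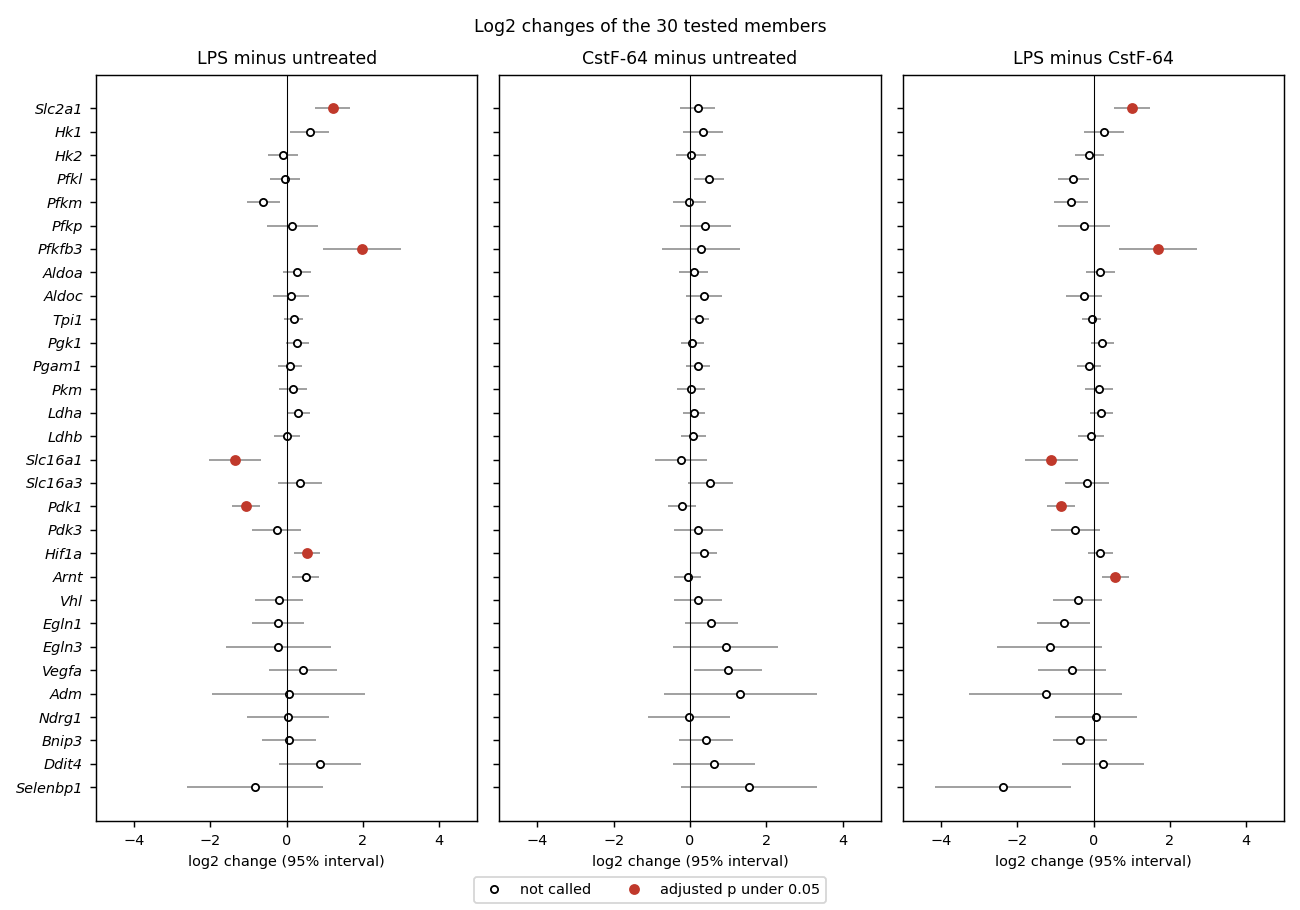
Log2 change of the 30 tested genes (x axis, log2 units) for LPS minus untreated, CstF-64 minus untreated and LPS minus CstF-64, ordered by role from top to bottom. Points are limma estimates, lines are 95% intervals and filled points have an adjusted p under 0.05; the intervals of Adm, Egln3 and Selenbp1 are among the widest, and no point is filled in the middle panel.

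Promoter sequences are shown for the 3 genes that rose after LPS, because HIF binds a core of 5 bases, ACGTG or GCGTG. Sequences of the 250 bases before each transcript start come from RefSeq (GRCm38.p6), written 5′ to 3′ on the gene's strand. Capitals mark ACGTG or GCGTG read on either strand, so that CACGT and CACGC are capitalised too and CACGTG, which reads ACGTG on both strands, counts for both. Slc2a1 is at chr4:119108495-119108744 (plus strand), Hif1a at chr12:73907617-73907866 (plus strand), and Pfkfb3 has 2 starts, with windows at chr2:11502091-11502340 and chr2:11553930-11554179 (minus strand).
Slc2a1: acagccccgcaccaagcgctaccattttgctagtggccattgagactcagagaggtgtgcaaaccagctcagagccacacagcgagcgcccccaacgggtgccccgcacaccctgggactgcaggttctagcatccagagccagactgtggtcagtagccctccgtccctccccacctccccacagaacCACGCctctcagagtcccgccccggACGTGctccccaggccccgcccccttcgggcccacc
Hif1a: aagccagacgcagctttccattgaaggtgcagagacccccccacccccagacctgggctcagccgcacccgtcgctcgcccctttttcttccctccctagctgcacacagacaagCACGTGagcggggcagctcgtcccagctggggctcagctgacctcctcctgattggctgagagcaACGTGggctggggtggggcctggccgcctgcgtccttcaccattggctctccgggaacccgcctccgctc
Pfkfb3, first window: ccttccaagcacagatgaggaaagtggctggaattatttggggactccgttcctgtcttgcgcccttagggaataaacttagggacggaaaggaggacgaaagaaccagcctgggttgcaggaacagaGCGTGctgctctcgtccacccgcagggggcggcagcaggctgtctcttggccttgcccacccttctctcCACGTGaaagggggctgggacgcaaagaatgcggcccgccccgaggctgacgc
Pfkfb3, second window: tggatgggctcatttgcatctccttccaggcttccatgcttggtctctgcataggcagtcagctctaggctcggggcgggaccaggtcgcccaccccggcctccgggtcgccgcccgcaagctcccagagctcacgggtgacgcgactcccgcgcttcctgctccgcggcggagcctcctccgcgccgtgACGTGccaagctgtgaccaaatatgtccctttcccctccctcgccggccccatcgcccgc
ACGTG occurred in all 4 windows, 36 bases before the start in Slc2a1, and GCGTG in that of Slc2a1 and in the first of Pfkfb3. Of the 35 genes, 33 were matched in the RefSeq promoter table used, and Bnip3l and Ndrg1 were not. ACGTG was found in 22 of their 47 windows (46.8%) and in 16.6% of all 32851 windows, and GCGTG in 26 of 47 (55.3%) and in 28.2% of all. Genes that did not rise held these cores too. Slc16a1, which fell, had 2 matches of ACGTG and 2 of GCGTG. Pdk1, which also fell, had 1 match of GCGTG and none of ACGTG. Ldha, which was not called, had 5 matches of ACGTG in 1 window. A match describes letters only and is no evidence of binding.

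No gene of the set was called between the arrays labelled CstF-64 and the untreated arrays. The count was 0 of 30 in each direction by limma, against 0.105% of all named genes higher and 0.169% lower. At an unadjusted p under 0.05 there were 3 of 30, all higher (Hif1a, Pfkl and Vegfa), against 6.82% of all named genes, and the groups did not overlap for 3, against 13.4%. The median log2 change was 0.23, with 25 of 30 values above 0. Over all named genes the median was 0.01, with 6442 of 12393 values above 0. This comparison and the LPS comparison use the same 3 untreated arrays.

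Hif1a read 810.1, 824.1 and 943.5 in arrays labelled CstF-64, against 668.4, 754.0 and 583.7 in untreated arrays, without overlap. The log2 change was 0.36 with a 95% interval from 0.03 to 0.69 (limma adjusted p = 0.721). Vegfa read 209.3, 487.3 and 534.5 in arrays labelled CstF-64, against 178.6, 177.0 and 197.6 in untreated arrays. All 3 lay above the untreated arrays, array 1 by little and arrays 2 and 3 by far, for a log2 change of 1.00 with a 95% interval from 0.10 to 1.89 (limma adjusted p = 0.704). Without CstF-64 array 1 it was 1.41 (limma adjusted p = 0.183). The second Vegfa probe set, 1451959_a_at, read 182.2, 277.6 and 322.1, against 159.3, 125.1 and 186.9 in untreated arrays, so there the groups overlapped. Its log2 change was 0.67 with a 95% interval from -0.32 to 1.65. For LPS against CstF-64 it gave 0.12, where the brighter probe set gave -0.58, and neither was called. Pfkl, the liver-type phosphofructokinase subunit, read 1082.3, 1663.3 and 1358.3 in arrays labelled CstF-64, against 893.2, 887.3 and 1100.6 in untreated arrays, so that the groups overlapped (log2 0.49, limma adjusted p = 0.628).

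For the genes that moved after LPS the differences were smaller. Slc2a1 read 1294.8, 1359.9 and 1701.1 in arrays labelled CstF-64, a log2 difference of 0.20 from untreated cells with a 95% interval from -0.26 to 0.66. Pdk1 read 177.0, 254.7 and 195.3 there (log2 -0.21, interval -0.57 to 0.15), and Slc16a1 read 733.9, 699.7 and 850.3 (log2 -0.24, interval -0.93 to 0.44). All 3 overlapped with the untreated arrays. The second Pdk1 probe set, 1423747_a_at, had the opposite sign, at 101.9, 189.5 and 222.4, against 114.1, 117.3 and 140.4 in untreated arrays. Its log2 difference was 0.37 (interval -0.22 to 0.96), also with overlap. Pfkfb3 read 64.2, 237.0 and 348.5, with array 1 below and arrays 2 and 3 above every untreated array (log2 0.29, interval -0.74 to 1.31, and 0.94 without array 1). Ldha read 4629.3, 4560.9 and 4297.4 (log2 0.10, interval -0.20 to 0.40), and Hk2 read 589.4, 685.1 and 657.5 (log2 0.02, interval -0.36 to 0.41), both within the untreated range or close to it. In lower glycolysis the 6 log2 differences ran from 0.02 to 0.36. None was called, against 0.105% of all named genes higher and 0.169% lower. At an unadjusted limma p under 0.05 there were 0, against 6.82% of all.

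Set directly against the arrays labelled CstF-64, LPS arrays were higher for Slc2a1, Pfkfb3 and Arnt and lower for Pdk1 and Slc16a1. That is 3 of 30 genes higher, against 6.36% of all named genes, and 2 lower, against 9.47%. Under quantile normalization 3 were higher and 4 lower, and under median centring 3 were higher and 1 lower. The median log2 difference was -0.15 over the 30 genes and -0.05 over all named genes, and the groups did not overlap for 7 genes, against 31.6% of all. An unadjusted p under 0.05 was reached by 9 genes, against 28.6% of all. The log2 differences were 1.01 for Slc2a1 (limma adjusted p = 0.00938), 1.69 for Pfkfb3 (0.0348), 0.56 for Arnt (0.0407), -0.86 for Pdk1 (0.00599) and -1.10 for Slc16a1 (0.0379). Without CstF-64 array 1, the lowest of its group for Pfkfb3, the difference for Pfkfb3 was 1.03 (limma adjusted p = 0.0148), and it was 0.96 (0.0323) without LPS array 1 as well. Arnt read 165.8, 132.1 and 128.1 in LPS arrays, against 78.8, 99.9 and 96.2 in arrays labelled CstF-64, without overlap. The calls of Slc2a1 and Pdk1 held under all 19 alternatives, whereas those of Pfkfb3 and Slc16a1 were lost in 8 each and that of Arnt in 12. Only Slc2a1 was higher without any one of LPS arrays 1, 2 and 3, CstF-64 array 2 or untreated arrays 2 and 3. Only Pdk1 was lower without LPS array 3, CstF-64 array 2 or 3, or untreated array 3.

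Several genes of the set varied more between arrays of the same group than most named genes. The SD of log2 values over the 3 arrays of a group had a median over the 30 genes of 0.271 after LPS, 0.296 in arrays labelled CstF-64 and 0.231 in untreated cells. Over all 8409 named genes above the background limit the medians were 0.219, 0.177 and 0.168. In the same group order, 9, 11 and 10 of the 30 genes exceeded the 90th percentile of all genes (0.486, 0.402 and 0.342). The widest were Adm among LPS arrays (1.24), Selenbp1 among arrays labelled CstF-64 (1.94) and Adm among untreated arrays (0.899). The smallest SD after LPS was that of the lower glycolysis gene Tpi1 (0.0499).

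**Figure D3:**
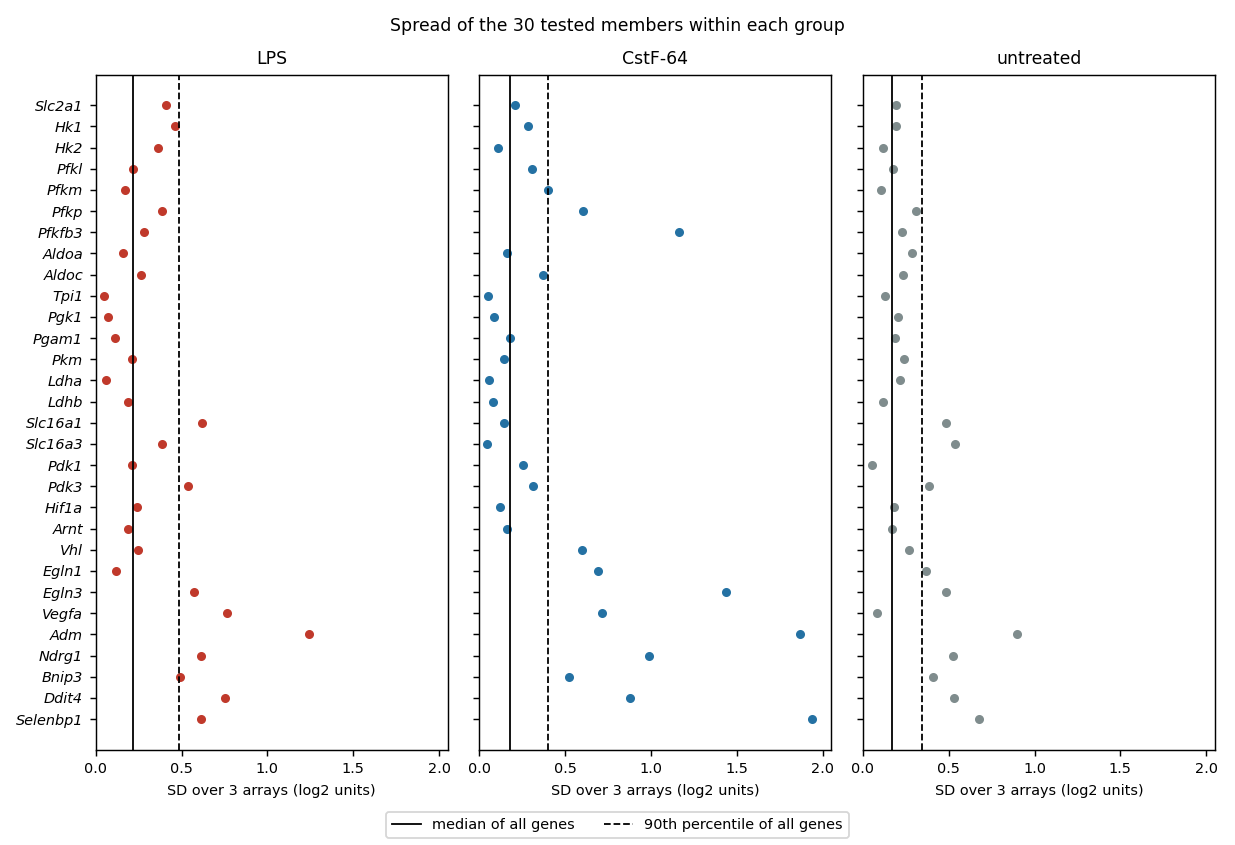
SD of log2(intensity + 13) over the 3 arrays of each group (x axis, log2 units) for the 30 tested genes, with LPS, CstF-64 and untreated panels from left to right. The solid line is the median and the dashed line the 90th percentile of all named genes above the background limit; 9, 11 and 10 genes lie beyond the dashed line in the same order.

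Adm encodes the vasodilator peptide adrenomedullin. It read 487.9, 94.0 and 106.8 in LPS arrays, 86.5, 898.7 and 952.9 in arrays labelled CstF-64, and 90.6, 142.9 and 339.1 in untreated arrays. Within the CstF-64 label its highest array was 11.0 times its lowest, and all groups overlapped. Selenbp1, a selenium-binding protein gene, read 262.1, 104.8 and 179.3 in LPS arrays, 190.8, 2087.0 and 2064.8 in arrays labelled CstF-64, and 284.7, 205.1 and 535.2 in untreated arrays. Arrays 2 and 3 of the CstF-64 label stood above all others, and array 1 of that label lay below the untreated range. The log2 change against untreated cells was 1.55 with a 95% interval from -0.23 to 3.33 (limma adjusted p = 0.851), and that of LPS against CstF-64 was -2.39 (limma adjusted p = 0.0756). Its second probe set, 1417580_s_at, gave 1.70 and -2.37.

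Egln3 encodes an oxygen-sensing prolyl hydroxylase that is itself induced by HIF. It read 65.0, 24.9 and 27.6 in LPS arrays, 21.6, 185.2 and 178.3 in arrays labelled CstF-64, and 56.5, 26.1 and 57.1 in untreated arrays. The 5 arrays that are high relative to their groups, LPS 1, CstF-64 2 and 3 and untreated 1 and 3, were the only ones above the background limit. Egln1, the main cellular oxygen sensor, read 175.4, 149.9 and 174.4 in LPS arrays, 164.8, 377.3 and 410.1 in arrays labelled CstF-64, and 162.2, 174.9 and 267.4 in untreated arrays. CstF-64 arrays 2 and 3 were again the highest and untreated array 3 came next. Vhl read 104.0, 76.1 and 73.0 in LPS arrays, 67.1, 153.3 and 148.7 in arrays labelled CstF-64, and 79.9, 97.6 and 121.4 in untreated arrays, with CstF-64 array 1 the lowest and untreated array 3 the highest of their groups.

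Ndrg1, a stress-responsive gene named for its regulation by N-myc, read 2369.9, 1087.0 and 1178.5 in LPS arrays, 623.7, 2076.6 and 2076.6 in arrays labelled CstF-64, and 1089.0, 1202.3 and 2142.1 in untreated arrays. LPS array 1, CstF-64 arrays 2 and 3 and untreated array 3 were the 4 highest, and no other array exceeded 1202.3. All 5 Ndrg1 probe sets ranked CstF-64 array 1 lowest and LPS array 1 and untreated array 3 highest in their groups. Bnip3, a mitochondrial protein of mitophagy, read 2756.8, 1487.3 and 1563.4 in LPS arrays, 1572.9, 3062.0 and 2843.6 in arrays labelled CstF-64, and 1744.9, 1356.9 and 2395.1 in untreated arrays. The same 4 arrays were the 4 highest. Pfkp, the platelet-type phosphofructokinase subunit, read 2123.5, 1333.8 and 1330.5 in LPS arrays, 1137.3, 2429.3 and 2294.3 in arrays labelled CstF-64, and 1289.9, 1188.2 and 1786.9 in untreated arrays, and these 4 were the highest for it as well. Ddit4, an inhibitor of mTORC1 signalling, read 633.5, 214.7 and 388.4 in LPS arrays, 150.3, 459.6 and 448.0 in arrays labelled CstF-64, and 272.3, 127.7 and 224.6 in untreated arrays. Untreated array 3 was not the highest of its group there.

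**Figure D4:**
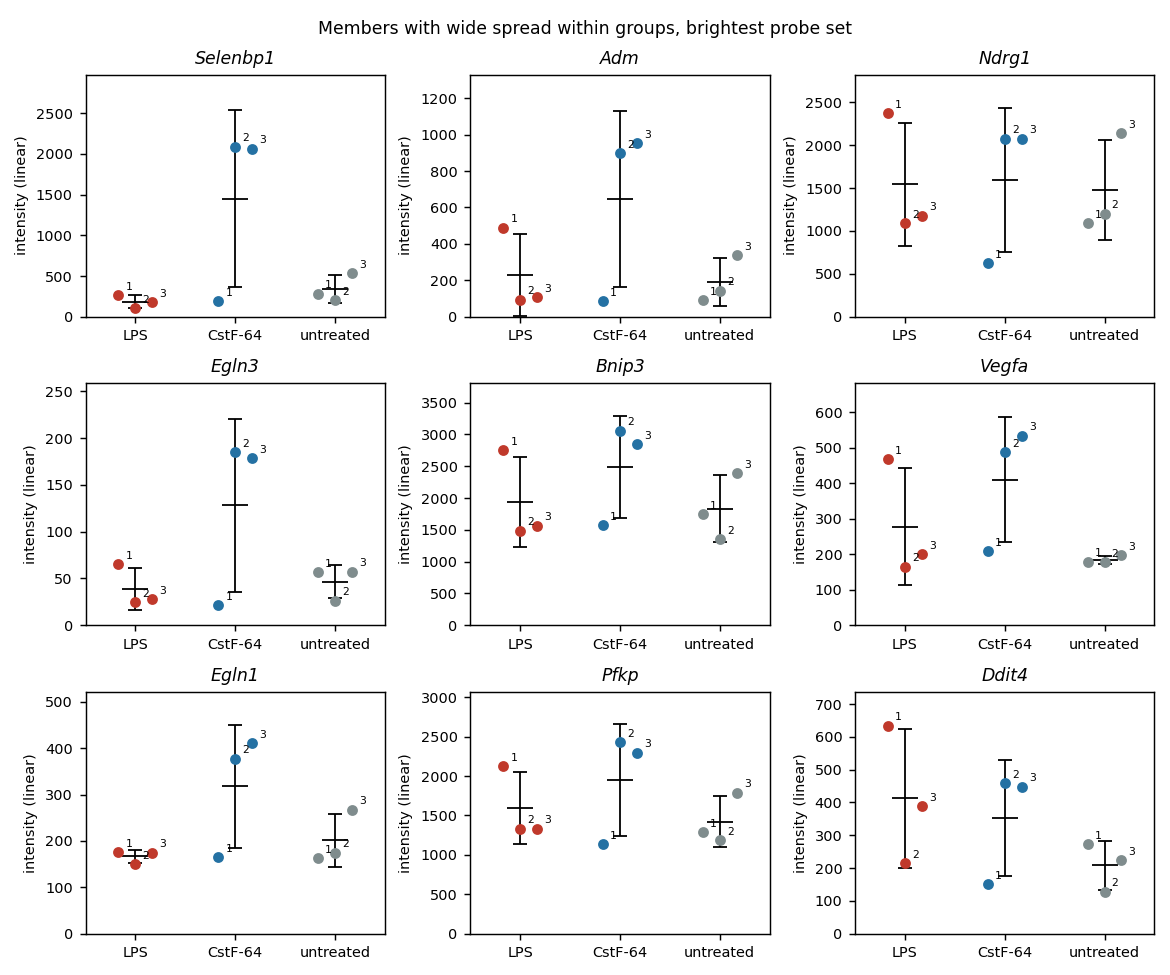
Intensity (linear scale) of 9 genes with wide spread within groups, by array, with LPS, CstF-64 and untreated groups from left to right. Points are arrays with their replicate numbers, and bars are the mean and SD of 3 arrays; CstF-64 array 1 lies below CstF-64 arrays 2 and 3 in all 9 panels, and LPS array 1 is the highest of its group in all 9.

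Over the 30 genes, LPS array 1 was the highest of its group in 24, against 45.8% of all named genes above the background limit. CstF-64 array 1 was the lowest of its group in 25, against 40.1%, and untreated array 3 was the highest of its group in 22, against 31.8%. These genes are not independent of each other. High values on LPS array 1 were not particular to the set. Of 6 LPS response genes read as a check, Il6, Nos2, Ptgs2, Il1b and Ccl5 were also highest on it, and Socs3 was not. In LPS arrays Il6 read 809.9, 42.8 and 59.4, and Nos2 read 1069.9, 143.5 and 182.0. Socs3 read 1490.9, 1486.1 and 1525.1. For the 5 hypoxia-induced genes the mean deviation from their own averages was 0.83, -0.60 and -0.32 log2 units in LPS arrays 1, 2 and 3. It was -0.80, 0.92 and 0.93 in CstF-64 arrays and -0.48, -0.61 and 0.13 in untreated arrays. The mean of the 6 lower glycolysis genes stayed between -0.30 and 0.17 on all arrays. That of the 8409 named genes above the background limit stayed between -0.07 and 0.04. On arrays scaled to a common level, a mean over so many genes lies near 0 in any case. Beside this, the 3′ to 5′ ratio of the actin control features, a sign of RNA quality, was 1.18, 1.11 and 1.14 in LPS arrays, 1.22, 1.06 and 1.09 in CstF-64 arrays and 1.20, 1.11 and 1.03 in untreated arrays. That of the Gapdh control features was 0.806, 0.831 and 0.844 in LPS arrays, 0.879, 0.851 and 0.818 in CstF-64 arrays and 0.867, 0.810 and 0.792 in untreated arrays. By the Gapdh ratio, LPS array 1 and untreated array 3 were the lowest and CstF-64 array 1 the highest of their groups. By the actin ratio, LPS array 1 and CstF-64 array 1 were the highest and untreated array 3 the lowest. The part of these ratios in the pattern was not tested, and neither was that of culture conditions, for which the labels give nothing by array.

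**Figure D5:**
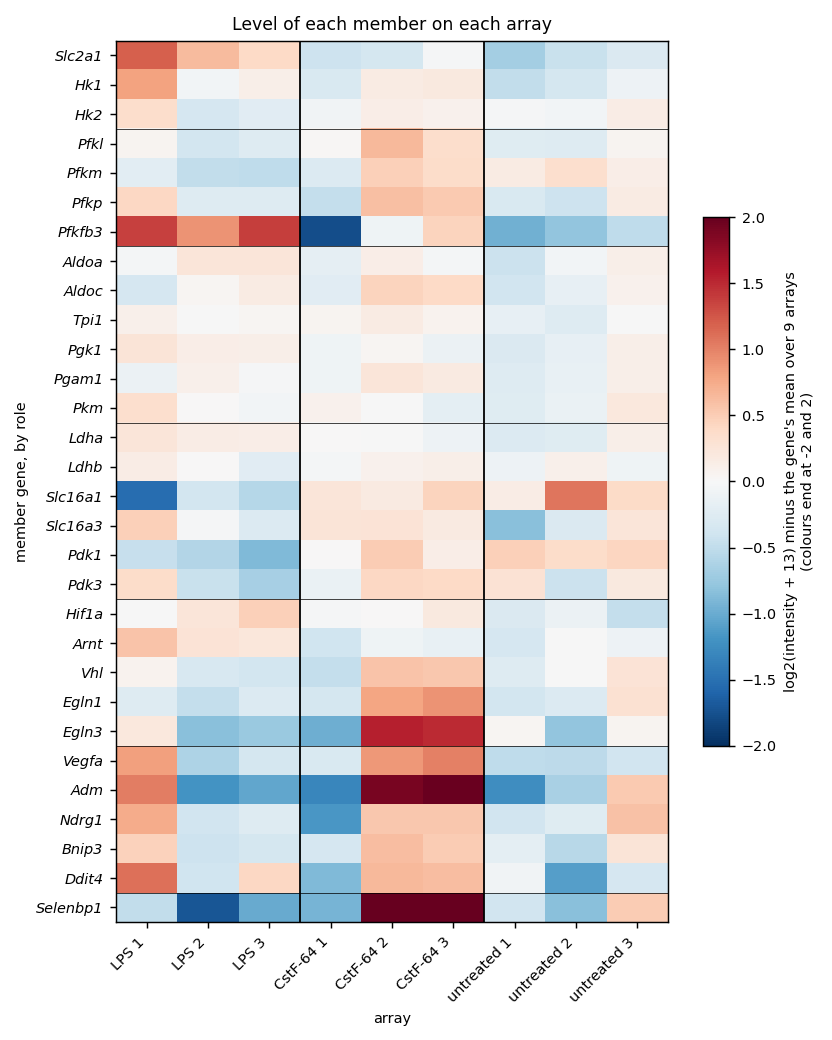
Level of each of the 30 tested genes on each of the 9 arrays, as log2(intensity + 13) minus the gene's mean over all arrays (colour scale in log2 units, ending at -2 and 2), with genes ordered by role and LPS, CstF-64 and untreated arrays from left to right. The hypoxia-induced genes near the bottom are high on LPS array 1 and CstF-64 arrays 2 and 3 and low on CstF-64 array 1.

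Some calls in the comparisons with the CstF-64 label changed without array 1 of that label. For LPS against CstF-64, Slc2a1 (limma adjusted p = 0.0299), Pfkfb3 (0.0148) and Pdk1 (0.00567) stayed called, and Arnt (0.102) and Slc16a1 (0.0720) were no longer called. Selenbp1 was then higher in the arrays labelled CstF-64 than in untreated arrays (log2 2.67, limma adjusted p = 0.0340), 1 of 30 genes against 0.218% of all named genes. In LPS arrays, 7 of 30 genes were lower than in the 2 remaining arrays labelled CstF-64, against 8.69% of all: Egln1, Egln3, Pdk1, Pfkl, Pfkm, Selenbp1 and Vhl. Without CstF-64 array 1 and LPS array 1 together, Egln3 (log2 1.76, limma adjusted p = 0.0278), Selenbp1 (log2 2.67, 0.0228) and Vegfa (log2 1.41, 0.00317) were higher under the CstF-64 label than in untreated cells, 3 of 30 genes against 0.694% of all. Adm had a log2 change of 2.39 there (limma adjusted p = 0.0516). LPS arrays were then lower than arrays labelled CstF-64 for 13 of 30 genes, against 11.2% of all, Adm, Bnip3, Hk2, Pdk3, Pfkp and Vegfa in addition to the 7 above. The setting without both arrays was added after the values had been seen. With 2 arrays left in a group, these values rest on the spread of all arrays kept. The CstF-64 arrays kept are those in which the hypoxia-induced genes are high. LPS array 1, left out in the last setting, was the highest LPS array in 24 of the 30 genes. The counts without both arrays thus follow in part from which arrays were left out, and no conclusion is drawn from them.

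For 4 of these widely varying genes the promoter windows are shown, with the same capitals and source as above. Adm is at chr7:110627407-110627656 (plus strand), Bnip3 at chr7:138909507-138909756 (minus strand), Egln3 at chr12:54203875-54204124 (minus strand) and Selenbp1 at chr3:94932833-94933082 (plus strand).
Adm: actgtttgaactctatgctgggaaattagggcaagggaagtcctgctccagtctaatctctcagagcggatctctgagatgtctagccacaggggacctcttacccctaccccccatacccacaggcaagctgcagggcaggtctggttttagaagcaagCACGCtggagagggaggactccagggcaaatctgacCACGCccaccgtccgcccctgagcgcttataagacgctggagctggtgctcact
Bnip3: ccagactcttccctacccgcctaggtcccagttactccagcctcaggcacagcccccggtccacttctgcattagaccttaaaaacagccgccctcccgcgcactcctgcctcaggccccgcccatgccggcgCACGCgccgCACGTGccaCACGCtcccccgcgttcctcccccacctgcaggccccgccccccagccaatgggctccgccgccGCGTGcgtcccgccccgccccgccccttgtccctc
Egln3: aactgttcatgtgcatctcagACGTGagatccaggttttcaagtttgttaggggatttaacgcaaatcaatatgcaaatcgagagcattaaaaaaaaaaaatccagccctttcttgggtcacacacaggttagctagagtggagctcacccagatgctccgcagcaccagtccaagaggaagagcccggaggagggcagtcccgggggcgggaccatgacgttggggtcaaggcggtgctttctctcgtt
Selenbp1: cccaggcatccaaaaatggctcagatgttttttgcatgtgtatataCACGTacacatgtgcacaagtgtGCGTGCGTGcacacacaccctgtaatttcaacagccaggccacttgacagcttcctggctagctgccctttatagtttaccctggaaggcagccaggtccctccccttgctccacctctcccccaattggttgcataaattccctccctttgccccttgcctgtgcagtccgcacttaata
Bnip3 held CACGTG 107 bases before the start and GCGTG at 3 further places. Egln3 held ACGTG once, Adm held GCGTG at 2 places and no ACGTG, and Selenbp1 held both, the run GCGTGCGTG counting as 2 overlapping matches.

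Related genes outside the set were counted in the same way. After LPS, 1 of 18 other measured glycolysis genes rose, against 6.63% of all named genes, and 2 fell, against 10.4%. The riser was Gpd2, a mitochondrial glycerol 3-phosphate dehydrogenase, at 764.9, 639.6 and 697.9 in LPS arrays, 420.8, 299.6 and 336.1 in arrays labelled CstF-64, and 492.7, 392.2 and 332.2 in untreated arrays. All LPS arrays exceeded all others (log2 0.78 against untreated cells, limma adjusted p = 0.0112). Eno3, the muscle enolase, and Bpgm, which makes 2,3-bisphosphoglycerate, fell by 0.69 each on the log2 scale (limma adjusted p = 0.0212 and 0.0478). Of 9 measured pentose phosphate genes 1 fell, Prps2 (log2 -0.80, limma adjusted p = 0.0150), against 10.4% of all named genes. At an unadjusted p under 0.05 there were 6 of the 9, against 29.0% of all, and the median log2 change was -0.39. None of 7 measured genes of pyruvate entry into mitochondria was called (limma, 0 at an unadjusted p under 0.05, median log2 -0.08).

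Of 19 other measured HIF pathway genes 2 rose after LPS, against 6.63% of all named genes, and none fell, against 10.4%. Edn1, the vasoconstrictor endothelin 1, read 788.7, 87.8 and 121.2 in LPS arrays, against 7.4, 10.2 and 7.3 in untreated arrays, which are all below the background limit. It was at least 6.51-fold higher after LPS (limma adjusted p = 0.00494), with LPS array 1 far above the other LPS arrays. Without that array it was at least 3.31-fold higher (limma adjusted p = 6.87e-05). Tmem45a was also called, at 5.9 to 11.8 in LPS arrays and 3.2 to 3.4 in untreated arrays, all below the background limit. Between the arrays labelled CstF-64 and untreated arrays none of the genes in these 4 lists was called (limma), against 0.105% of all named genes higher and 0.169% lower. At an unadjusted p under 0.05 there were 2 of 18, 1 of 9, 0 of 7 and 5 of 19, against 6.82% of all. Between LPS arrays and arrays labelled CstF-64, 2 of the 19 HIF pathway genes were higher after LPS (Edn1 and Tmem45a), against 6.36% of all, and 3 were lower, against 9.47%. These were Ak4, Car12 and Stc2, named after their values were seen. Car12, a carbonic anhydrase, read 91.5, 46.6 and 67.3 in LPS arrays, against 187.0, 338.0 and 398.2 in arrays labelled CstF-64 (log2 -1.95, limma adjusted p = 0.00213). Of the 16 HIF pathway genes above the background limit, LPS array 1 was the highest of its group in 15. CstF-64 array 1 was the lowest in 12 and untreated array 3 the highest in 11. The shares over all named genes above that limit were 45.8%, 40.1% and 31.8%. For the 13 other glycolysis genes above it, the counts were 8, 7 and 7 in the same order. Ero1a, an oxidase of protein folding chosen for mention after its values were seen, read 4119.0, 2106.9 and 2190.0 in LPS arrays, 1320.4, 3343.2 and 3278.7 in arrays labelled CstF-64, and 1685.1, 1730.5 and 3095.1 in untreated arrays. The 4 highest arrays for Ero1a were those named above for Ndrg1.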

How the data were processed

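Total RNA of 9 samples was measured on 9 Affymetrix arrays, and RNA isolation used Ultraspec reagents, per the labels. The authors deposited linear intensities, 1 for each probe set on each array. Their software, background correction and normalization are not stated in the labels, but trimmed means of 150.05 to 150.06 on all arrays show a common scaling. Probe sets were named from the platform annotation, with symbols updated by gene identifier to GRCm38.p6, and 691 probe sets with several genes were not named. Values were transformed to log2(intensity + 13), which understates changes of dim probe sets, and all 9 arrays were fitted in 1 model with limma 3.58.1 (lmFit, eBayes with intensity trend) in R 4.3.3. P-values from two-sided tests received a Benjamini-Hochberg adjustment over 22626 probe sets, with a threshold of 0.05. Tests of unequal probe sets used diffSplice over 4956 genes. The fit was tested on simulated data. Any gene of the set could be named. Values per array were given for genes called on any probe set and for Hif1a, Vegfa, Ldha, Gapdh and Hk2, and the other genes with values per array were picked after their values were seen. From related lists, up to 4 called genes were named. The genes and lists were chosen with earlier results of these data known. Depth does not apply to arrays, and 3 arrays per group limit the precision.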

Additional observations from a re-analysis of the deposited data

How the results depend on the processing

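Across 19 alternatives, 4 of 10 calls held throughout (Slc2a1 and Pdk1, each for LPS against both other groups), no called value reversed, and 81 values of uncalled genes changed sign. Of the uncalled results, 59 stayed uncalled in all alternatives and 21 were called in at least 1. Median centring moved the median of all named genes after LPS to 0.13, where the deposited scaling gave -0.03, and gave 6 higher genes of the set in place of 3. For LPS against CstF-64 it gave 1 lower gene in place of 2, quantile normalization 4 and leaving out dim probe sets 5. Fitting only the 2 groups compared, or the mean of all probe sets of a gene, left 1 higher gene there in place of 3. The setting without both arrays that stand apart was added after the values had been seen. It gave 3 higher genes for CstF-64 against untreated, against 0.694% of all named genes. For LPS against CstF-64 it gave 13 lower genes, against 11.2% of all, a count that depends on which arrays were left out. Leaving out each array in turn gave 1 to 4 higher and 1 to 3 lower genes for LPS against untreated, 0 to 1 higher and 0 lower for CstF-64 against untreated, and 1 to 3 higher and 1 to 7 lower for LPS against CstF-64.

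Of the 53 measured genes of the related lists together, 3 were higher and 3 lower for LPS against untreated. The shares of all named genes in the main fit were 6.63% and 10.4%. For CstF-64 against untreated the counts were 0 and 0, against 0.105% and 0.169%. For LPS against CstF-64 they were 3 and 6, against 6.36% and 9.47%. Without dim probe sets 43 of the 53 genes were tested. For LPS against untreated, median centring gave 5 higher and 1 lower, a pseudocount of 1 gave 5 lower, leaving out dim probe sets 6, the 2 groups only 5, gene means 6, and leaving out both arrays 5 higher and 6 lower. Without both arrays, 3 were higher for CstF-64 against untreated, and for LPS against CstF-64 quantile normalization gave 3 lower and median centring 2. Leaving out each array gave 2 to 5 higher and 0 to 7 lower for LPS against untreated, 0 to 1 higher and 0 lower for CstF-64 against untreated, and 2 to 3 higher and 1 to 6 lower for LPS against CstF-64. Unequal probe sets were called for 0 genes of the set, for 1 (Aldoc) without both arrays and for 0 to 1 when each array was left out.

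Deviations of arrays with the same replicate number correlated at -0.06 to 0.16, so the numbers were not taken as pairs. With the replicate number as a block, the counts for the set were 3 higher and 2 lower for LPS against untreated, 0 and 0 for CstF-64 against untreated, and 2 and 2 for LPS against CstF-64, and 1 gene (Aldoc) had unequal probe sets. The cause of these changes was not tested. Genes near the background limit of 31.2, such as Egln3, are measured least well.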
